A study of Mus musculus with 6 samples.

Results

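The genes described here encode the methyltransferases of histone H3 lysine 4 (H3K4) and the core subunits that these enzymes share. There are 6 enzyme genes, Kmt2a, Kmt2b, Kmt2c, Kmt2d, Setd1a and Setd1b, and 4 shared subunit genes, Wdr5, Ash2l, Rbbp5 and Dpy30. They were taken by name, 10 of 21938 protein-coding genes of the mouse annotation, with earlier results of these data known. For each gene, peaks of H3K27ac, an acetylation of histone H3 at lysine 27 that marks active promoters and enhancers, were collected at its transcription start sites (TSSs), in its body and in the 50 kb on either side.

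H3K27ac was measured by chromatin immunoprecipitation and sequencing (ChIP-seq) in 6 samples of mouse embryonic stem cells (mESCs), in a study that asked whether the mark depends on ongoing transcription. All samples were of 1 cell line of E14 origin, named E14Tg2A Rosa26-Cre Oct4-IRES-Puro, kept in N2B27 medium with LIF and the kinase inhibitors PD0325901 and CT-99021, which hold the cells in a naive pluripotent state. Control cells received DMSO (2 samples). The other cells received for 120 min either 100 nM NVP-2, an inhibitor of the elongation kinase CDK9 (2 samples), or 800 nM actinomycin D (ActD), a DNA intercalator that blocks RNA polymerases (2 samples). Chromatin from HEK293T, a human embryonic kidney line, was added to each sample as a spike-in reference. The file used here is the list of peaks in control cells, made from both control samples together, and every result below is about these DMSO-treated cells. It holds 22973 peaks as positions in mm10 with no height or read count. A peak is therefore either listed or not, and although the study states the reads of each library, the reads behind a single peak cannot be taken from the list. There is no replicate error for any value below, and no treated sample was compared.

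The list was checked against genes that define the cells. Promoters of 6 of 6 mESC markers (Pou5f1, Nanog, Sox2, Zfp42, Tfcp2l1 and Tdgf1) carried a peak, 17.8 to 71.8 kb wide, and each of these genes lay wholly inside peaks. Of 14 markers of other cell types, 5 were marked. These were Gata4 and Gata6 of primitive endoderm, Sox1 of neural cells, and Twist1 and Pdgfrb of fibroblasts, with peaks of 0.476 to 21.5 kb. Cdx2, Elf5 and Gata3 of trophoblast, Sox17, Foxa2, Pax6, T, Col1a2 and Thy1 had no promoter peak, although Gata3 had a peak in its gene body. The part of other cells in any result below was not tested.

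Methylation of H3K4 is written by complexes built around a SET domain enzyme. Setd1a and Setd1b encode the enzymes that make most of the trimethylation at active promoters. Kmt2a and Kmt2b, relatives of the fly gene trithorax, act at smaller sets of promoters, among them those of developmental genes. Kmt2c and Kmt2d encode very large enzymes that place monomethylation at enhancers, where H3K27ac is also found. The enzymes are weak alone and gain activity with WDR5, RBBP5, ASH2L and DPY30, a module common to all of these complexes. KMT2A, KMT2B and CXXC1, the partner of the SETD1 enzymes, carry a CXXC domain that binds unmethylated CpG dinucleotides. The CpG content of the promoters of the 10 genes is described with the peaks.

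The sequences that show the range of these promoters are given first. The RefSeq promoter table (GRCm38.p6, the build called mm10) holds 32851 windows of 300 bases, from 250 bases before to 50 after a TSS. They include promoters of noncoding genes and promoters without a peak, so shares over them are not shares over marked coding genes. Of the 10 genes, 7 matched with 10 windows. Kmt2b, Setd1b and Ash2l were not matched. The windows of Kmt2c, Wdr5 and Rbbp5 are shown because they run from the highest to the lowest GC content among the marked TSSs, and a pair of windows of Dpy30 is shown because a peak covers the TSS of the first and not that of the second. Each reads 5′ to 3′ on the strand of the gene, and capitals mark every CpG.
Kmt2c, chr5:25498734-25499033, minus strand: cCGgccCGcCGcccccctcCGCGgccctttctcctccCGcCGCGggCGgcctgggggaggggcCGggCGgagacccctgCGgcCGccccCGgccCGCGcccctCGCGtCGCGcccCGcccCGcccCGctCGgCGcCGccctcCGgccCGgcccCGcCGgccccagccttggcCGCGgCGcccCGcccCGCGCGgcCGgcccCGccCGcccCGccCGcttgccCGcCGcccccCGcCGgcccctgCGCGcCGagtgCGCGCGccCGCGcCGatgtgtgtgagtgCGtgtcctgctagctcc
Wdr5, chr2:27514897-27515196, plus strand: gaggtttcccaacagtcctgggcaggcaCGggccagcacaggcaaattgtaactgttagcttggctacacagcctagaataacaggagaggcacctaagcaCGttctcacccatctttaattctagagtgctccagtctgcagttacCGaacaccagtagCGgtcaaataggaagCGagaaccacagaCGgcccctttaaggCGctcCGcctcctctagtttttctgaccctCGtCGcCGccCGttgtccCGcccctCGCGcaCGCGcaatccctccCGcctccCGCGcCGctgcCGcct
Rbbp5, chr1:132477117-132477416, plus strand: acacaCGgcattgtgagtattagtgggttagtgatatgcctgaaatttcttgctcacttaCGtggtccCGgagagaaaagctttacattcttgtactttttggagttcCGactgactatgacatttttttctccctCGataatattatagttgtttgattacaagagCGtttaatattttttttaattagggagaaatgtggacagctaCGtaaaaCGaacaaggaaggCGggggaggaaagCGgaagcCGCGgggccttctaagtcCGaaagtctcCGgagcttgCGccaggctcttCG
Dpy30, TSS in the peak, chr17:74316384-74316683, minus strand: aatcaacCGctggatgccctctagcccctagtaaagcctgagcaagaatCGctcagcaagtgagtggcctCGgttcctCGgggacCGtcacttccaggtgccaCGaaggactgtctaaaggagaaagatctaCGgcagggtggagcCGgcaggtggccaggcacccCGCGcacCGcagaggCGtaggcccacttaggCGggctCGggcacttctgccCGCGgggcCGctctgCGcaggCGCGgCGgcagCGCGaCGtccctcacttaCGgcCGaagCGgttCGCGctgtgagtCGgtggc
Dpy30, upstream TSS, chr17:74323895-74324194, minus strand: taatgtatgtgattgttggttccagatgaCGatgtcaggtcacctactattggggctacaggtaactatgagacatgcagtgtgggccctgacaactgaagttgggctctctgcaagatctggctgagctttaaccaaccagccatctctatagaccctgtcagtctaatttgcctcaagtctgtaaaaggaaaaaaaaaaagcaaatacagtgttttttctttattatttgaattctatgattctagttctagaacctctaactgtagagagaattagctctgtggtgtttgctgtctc

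The Kmt2c window held 56 CpGs in 88.0% GC, a GC content that 99.99% of the promoters in the table did not exceed. Wdr5 had 22 CpGs in 59.0% GC. Rbbp5 had 16 CpGs in only 44.0% GC, so that its observed over expected CpG, which divides the CpGs found by those that its C and G content would give by chance pairing, was 1.13 (98.7th percentile of the table). The first Dpy30 window, 1 of 3 with a TSS in the peak, had 30 CpGs, 66.3% GC and a ratio of 0.91, and the window of the upstream TSS had 1 CpG, 40.7% GC and a ratio of 0.08 (10.7th percentile).

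All 10 genes carried an H3K27ac peak within 1 kb of the TSS of at least 1 annotated isoform (10 of 10, 95% Wilson interval 72.2 to 100%). The interval covers counting error only and treats genes chosen by name as random draws. Of all protein-coding genes, 51.9% carried such a peak. These include genes not expressed in the cells, and the study found the mark at most active promoters but few inactive ones. Expression of the 10 genes was not used here. Each of the 10 had exactly 1 such peak, as did 89.9% of the 11384 marked protein-coding genes. The promoter peaks were 1.87 to 19.2 kb wide, with a median of 4.42 kb against 2.30 kb over all marked genes (quartiles 1.59 and 5.19 kb, widest promoter peak of each gene). The width was above the median of marked genes in 9 of the 10 and above the upper quartile in 4, Setd1b, Wdr5, Ash2l and Rbbp5. The authors joined peaks lying within 2 kb of each other, so a wide peak may hold several summits, which positions alone do not show. The 4 widest promoter peaks were thus of 1 enzyme and 3 shared subunits, and the narrowest was of the remaining subunit, Dpy30.

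**Figure D1:**
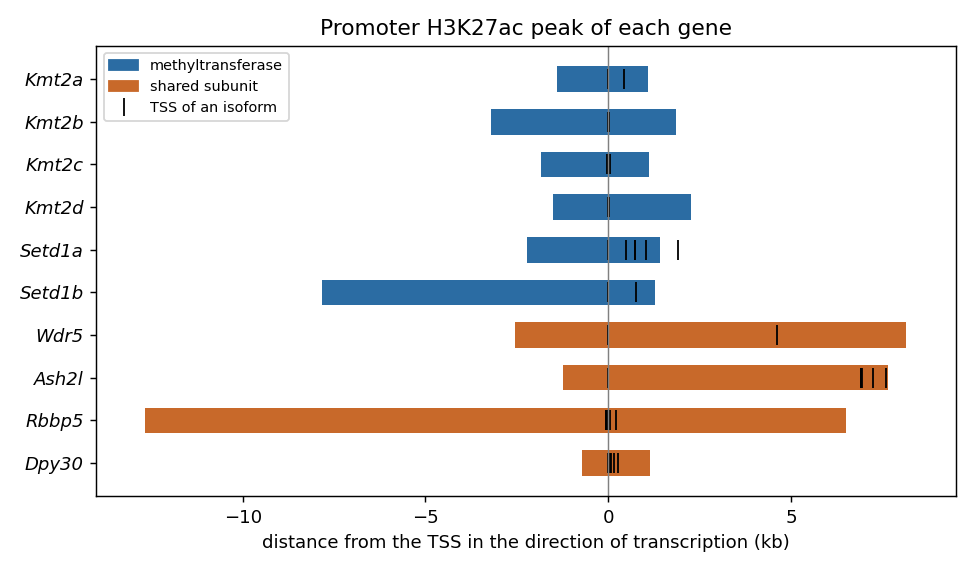
Extent of the promoter H3K27ac peak of each of the 10 genes, in kb from the TSS in the direction of transcription (0 is the TSS of the longest isoform that starts inside the peak). Bars are peaks, blue for methyltransferases and orange for shared subunits, and ticks are the TSSs of isoforms within 1 kb of the peak. Rbbp5 and Setd1b reach farthest upstream (12.7 and 7.84 kb), and Wdr5 and Ash2l farthest downstream (8.15 and 7.66 kb).

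The KMT2A and KMT2B enzymes are the nearest relatives of each other among the 6, and their promoter peaks differed in width. Kmt2a (chr9:44803355-44881296, minus strand), the gene that is rearranged in mixed lineage leukemia, had a peak at chr9:44880210-44882703. It was 2.49 kb wide, at the 53.0th percentile of marked genes, and ran from 1.41 kb before to 1.09 kb after the TSS. It had the highest GC content of the 10 promoter peaks, 66.6%. The peak also lay within 1 kb of the TSS of AC061963.1, an antisense transcript. Kmt2b (chr7:30568858-30588726, minus strand) is 19.9 kb long, beside 77.9 kb for Kmt2a, and its peak at chr7:30586874-30591932 was 5.06 kb wide (74.5th percentile). It ran from 3.21 kb before the TSS to 1.85 kb after it, over exons 1 to 3, and its GC content was 58.7%. No other gene had a TSS within 1 kb of it.

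Kmt2c and Kmt2d, the enhancer methyltransferase genes, had promoter peaks narrower than the median of the 10 genes and wider than that of all marked genes. The peak of Kmt2c (chr5:25271798-25498783, minus strand) lay at chr5:25497632-25500596. It was 2.97 kb wide (59.1st percentile), of which 1.85 kb lay before the TSS, and its observed over expected CpG of 0.98 was the highest of the 10 promoter peaks. The lincRNA 4831440E17Rik started within 1 kb of it. The peak of Kmt2d (chr15:98831669-98871204, minus strand) lay at chr15:98868940-98872716 and was 3.78 kb wide (66.5th percentile). It ran farther into the gene (2.26 kb) than before the TSS (1.51 kb), unlike those of the other 5 enzyme genes, and the lincRNA 5730414N17Rik and the unclassified transcript Gm49437 started within 1 kb of it.

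Setd1a and Setd1b, the genes of the enzymes of bulk trimethylation, had most of their peak before the TSS. The peak of Setd1a (chr7:127776670-127800122, plus strand) lay at chr7:127774438-127778092 and was 3.66 kb wide (65.5th percentile), with 2.23 kb before the TSS and 1.42 kb after. No other gene started within 1 kb of it. The peak of Setd1b (chr5:123142193-123168629, plus strand) lay at chr5:123134356-123143477 and was 9.12 kb wide (86.8th percentile). Of this, 7.84 kb (85.9%) lay before the TSS. The 3 lincRNAs 4932422M17Rik, AI480526 and Gm38102 have a TSS inside the peak or within 1 kb of it, and their part in its width was not tested.

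Among the shared subunits, Wdr5, Ash2l and Rbbp5 had wider peaks than every gene above but Setd1b, which was wider than Ash2l. Wdr5 (chr2:27515157-27536535, plus strand) encodes the WD40 propeller protein that holds the enzyme to the module. Its peak at chr2:27512603-27523304 was 10.7 kb wide (89.1st percentile) and ran 8.15 kb into the gene, over exons 1 to 7 of 14. Ash2l (chr8:25815996-25847694, minus strand) encodes the subunit that, with RBBP5, contacts the SET domain. Its peak at chr8:25840033-25848928 was 8.90 kb wide (86.5th percentile) and ran 7.66 kb into the gene. The coding gene Kcnu1, a potassium channel gene, has a TSS within 1 kb of it.

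Rbbp5 and Dpy30 stood at the ends of the range. Rbbp5 (chr1:132477365-132505659, plus strand), the partner of ASH2L, had its peak at chr1:132464763-132483929. It was 19.2 kb wide (95.7th percentile), with 12.7 kb before the TSS and 6.49 kb after it, and the processed transcript 6030442K20Rik started within 1 kb of it. Dpy30 (chr17:74299474-74323944, minus strand) encodes a small protein that binds ASH2L. Its peak at chr17:74315329-74317194 was 1.87 kb wide (36.5th percentile), the only one of the 10 narrower than the median of marked genes. It ran from 0.731 kb before to 1.13 kb after the TSS, and no other gene started within 1 kb.

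**Figure D2:**
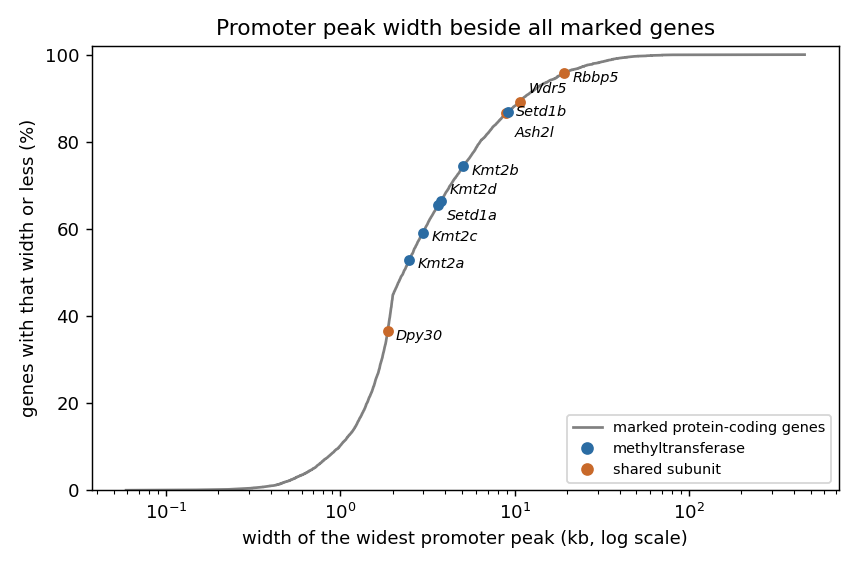
Width of the promoter peak of each gene (kb, log scale) on the cumulative curve of the widest promoter peak of all 11384 marked protein-coding genes. The vertical axis gives the percentage of these genes with that width or less, and blue points are methyltransferases and orange points shared subunits. The points run from Dpy30 at the 36.5th to Rbbp5 at the 95.7th percentile.

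By role, the 6 enzyme genes had a median promoter peak width of 3.72 kb (2.49 to 9.12 kb) and the 4 shared subunit genes one of 9.80 kb (1.87 to 19.2 kb). The ranges overlap, since Dpy30 lay below every enzyme gene and Setd1b above Ash2l. The longer arm of the peak lay before the TSS in 6 of the 10 genes and after it in 4 (Kmt2d, Wdr5, Ash2l and Dpy30). Among the 10770 marked genes with a TSS inside a promoter peak, the longer arm lay before the TSS in 33.4% and after it in 66.5%. The medians over the 10 genes were 2.04 kb before and 1.64 kb after the TSS, beside 0.87 kb and 1.18 kb over those 10770 genes. In every one of the 10 a TSS lay inside the peak itself, as in 94.6% of marked genes.

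The share of the gene covered by peaks was lowest in the 2 longest genes, both of enzymes. Kmt2c, 227.0 kb long, had 1.76% of its length in peaks (11.7th percentile of marked genes), and Kmt2a, 77.9 kb long, had 1.39% (8.75th percentile). The other 4 enzyme genes, 19.9 to 39.5 kb long, had 9.33% (Kmt2b), 7.81% (Kmt2d), 6.07% (Setd1a) and 13.8% (Setd1b). Among the subunit genes, 21.4 to 31.7 kb long, Wdr5 had 50.9% (87.6th percentile), Ash2l 33.4% (80.6th), Rbbp5 23.2% (72.5th) and Dpy30 7.63% (44.2nd). The medians were 6.94% for enzymes and 28.3% for subunits. Over the 10 genes the median was 8.57%, beside 9.65% over marked genes, whose median length was 24.0 kb, and 6 of the 10 lay below that value.

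Which of the annotated TSSs carried a peak differed among the genes. Of the 67 isoforms of the 10 genes, 43 (64.2%) had a peak within 1 kb of their TSS, beside 46.7% of the isoforms of all protein-coding genes and 69.2% of those of marked genes. Of the isoforms annotated as protein-coding, 37 of 44 (84.1%) were marked, and of the other types, such as retained introns, 6 of 23 (26.1%). The same shares over marked genes were 81.3% and 56.1%. In Setd1a all 6 isoforms were marked, the only such gene of the 10, while 41.2% of marked genes had a peak at every isoform. The others had 4 of 6 (Kmt2a), 2 of 8 (Kmt2b), 4 of 8 (Kmt2c), 2 of 5 (Kmt2d), 4 of 6 (Setd1b), 3 of 4 (Wdr5), 7 of 11 (Ash2l), 6 of 7 (Rbbp5) and 5 of 6 (Dpy30).

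The 7 coding isoforms without a peak were 1 of Kmt2b, 2 of Kmt2c, 2 of Kmt2d, 1 of Setd1b and 1 of Dpy30. Those of Kmt2c start 190.2 and 198.7 kb downstream of the TSS in the promoter peak, 31.8 and 23.4 kb from the nearest peak. The coding isoform of Kmt2b without a peak starts 3.39 kb into the gene, 1.53 kb beyond the end of the promoter peak. The longest isoform of Dpy30, a coding one, starts at position 74323944, the upstream TSS shown in the sequences above, and this TSS lies 6.75 kb from the nearest peak. Dpy30 was therefore unmarked when only the longest isoform of each gene was used, which left 9 of the 10 genes marked, beside 48.7% of all protein-coding genes. The other 5 isoforms of Dpy30 start within 0.26 kb of each other inside the peak.

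In Ash2l and Wdr5, by contrast, 1 peak covered TSSs lying far apart. The longest isoform of Ash2l starts at position 25847694, and 6 other isoforms start 6.91 to 7.61 kb downstream of it, all inside the 8.90 kb peak. In Wdr5, 2 isoforms start at position 27515157 and 1 at position 27519761, and the peak covers both sites. The 2 promoter peaks that ran farthest into their genes were thus peaks with a further start site several kb downstream of the first.

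**Figure D3:**
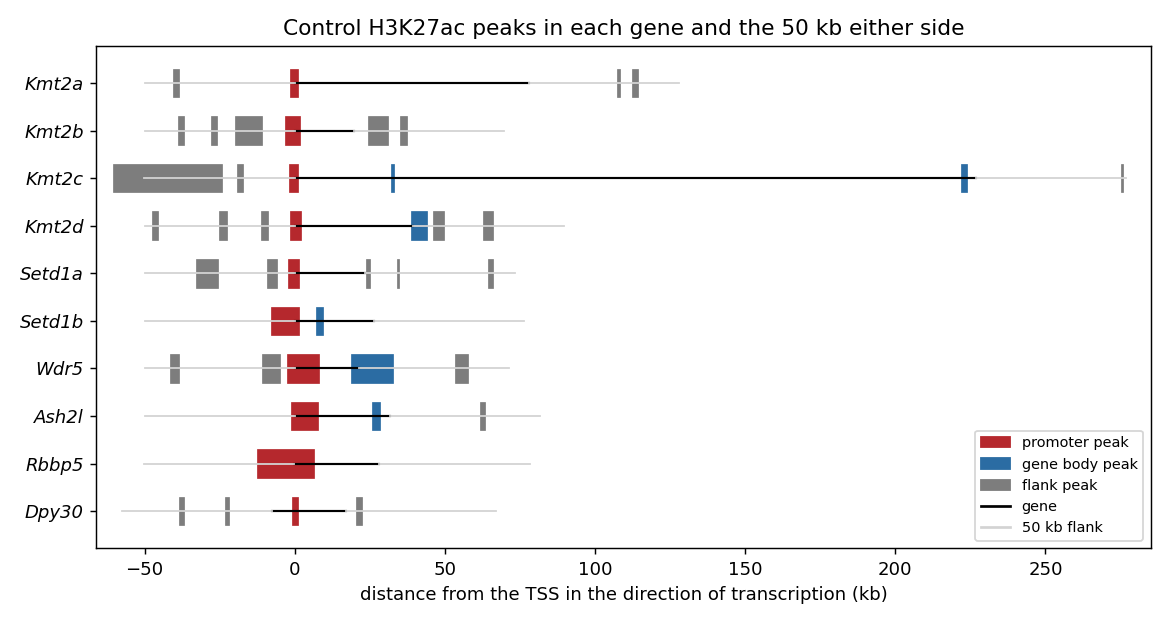
Control H3K27ac peaks in the 10 genes and the 50 kb on either side, in kb from the TSS in the direction of transcription. Red blocks are promoter peaks, blue blocks gene body peaks and grey blocks flank peaks, with black lines for genes and light lines for flanks. Setd1b and Rbbp5 have no flank peak, and a 36.1 kb peak lies upstream of Kmt2c.

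Peaks in the gene body, outside the 1 kb windows of the gene's own TSSs, were found in 5 of the 10 genes (6 peaks), beside 17.4% of all protein-coding genes and 25.1% of marked ones. Kmt2c had 2 such peaks, and Kmt2d, Setd1b, Wdr5 and Ash2l had 1 each. Kmt2a, Kmt2b, Setd1a, Rbbp5 and Dpy30 had none. The longest gene, Kmt2c, had the most body peaks and the second longest, Kmt2a, had none, and the part of gene length was not tested. With only peaks of at least 1 kb counted, Kmt2c had 1, as many as Kmt2d, Setd1b, Wdr5 and Ash2l.

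Both body peaks of Kmt2c were narrow and lay far from its promoter. That at chr5:25465767-25466681 was 0.915 kb wide and lay in intron 1, 32.1 to 33.0 kb into the gene. That at chr5:25274795-25276719 was 1.93 kb wide and lay over exons 56 to 58 of 59, 222.0 to 223.9 kb from the TSS. No annotated gene started within 1 kb of either one. The 300 bases at the centre of the intron 1 peak are shown to set beside the Kmt2c promoter above, on the plus strand of the reference genome, 5′ to 3′, with CpGs in capitals.
Kmt2c, centre of the intron 1 peak, chr5:25466075-25466374, plus strand: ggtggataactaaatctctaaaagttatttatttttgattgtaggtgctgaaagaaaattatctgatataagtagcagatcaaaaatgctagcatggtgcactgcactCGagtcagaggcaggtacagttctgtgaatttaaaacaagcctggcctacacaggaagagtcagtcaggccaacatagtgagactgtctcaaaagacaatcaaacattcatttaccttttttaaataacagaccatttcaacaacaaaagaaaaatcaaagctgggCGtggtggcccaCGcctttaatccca
This stretch held 3 CpGs in 38.7% GC, with 40% of its bases in annotated repeats, against 56 CpGs in 88.0% GC in the promoter window of the same gene.

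The other gene body peaks lay near or across gene ends, or inside the gene. The Kmt2d peak at chr15:98827023-98832492 (5.47 kb) covered the last exon, exon 55, ran past the gene end and held a TSS window of Prkag1, the neighbouring gene. The Wdr5 peak at chr2:27533810-27548063 (14.3 kb) covered exons 13 and 14 of 14 and ran past the gene end, to 32.9 kb from the TSS, and the processed transcript Gm13421 starts within 1 kb of it. When a body peak had to have its midpoint in the gene, both of these were lost and 3 of the 10 genes had one, beside 15.4% of all protein-coding genes and 22.1% of marked ones under the same rule. The Setd1b peak at chr5:123149425-123151778 (2.35 kb) lay in intron 6, 7.23 to 9.59 kb into the gene. The Ash2l peak at chr8:25819176-25822094 (2.92 kb) lay over exon 13 of 16, and 54.4% of its bases were in annotated repeats, beside a median of 17.5% over all peaks of the list.

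Body peaks and promoter peaks of these genes differed in base composition. The GC content was 38.1 to 54.8% in the 6 body peaks (median 46.5%) and 43.2 to 66.6% in the 10 promoter peaks (median 55.6%). Observed over expected CpG was 0.16 to 0.40 in body peaks (median 0.24) and 0.22 to 0.98 in promoter peaks (median 0.52). Over marked genes with a TSS inside a promoter peak, with 1 peak taken per gene, the medians were 53.0% GC and a ratio of 0.58. Over all peaks of the list they were 49.5% and 0.30. The 3 widest peaks among the shared subunit genes were the poorest in CpG of the 10. The ratios were 0.22 in Rbbp5, 0.28 in Wdr5 and 0.39 in Ash2l, whereas the 3 narrowest peaks, of Kmt2c, Dpy30 and Kmt2a, had 0.98, 0.84 and 0.68. Width did not order them throughout, since the 9.12 kb peak of Setd1b had 0.52, beside 0.50 and 0.51 in the narrower peaks of Kmt2b and Kmt2d. A wide peak takes in more sequence away from the TSS, so its width and its ratio are not separate measures.

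**Figure D4:**
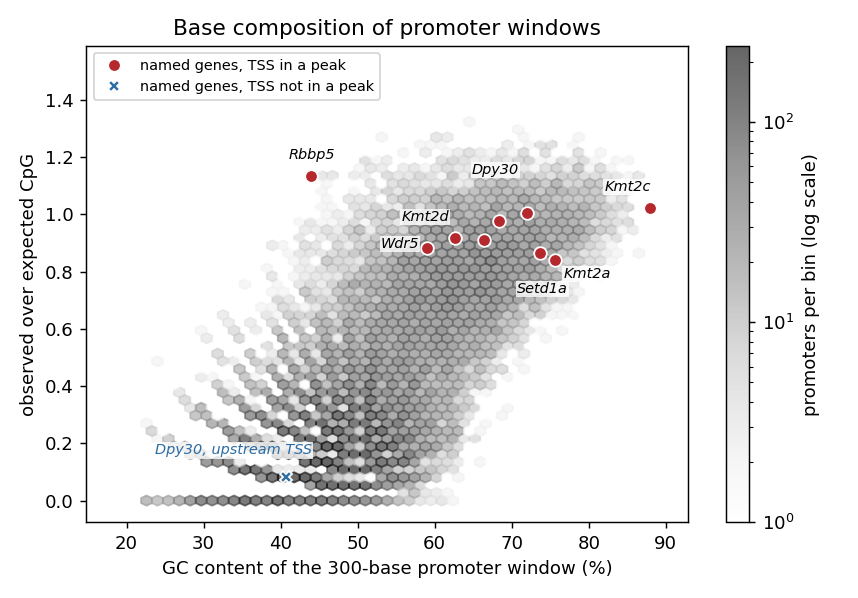
GC content (horizontal axis, %) and observed over expected CpG (vertical axis) of the 300-base promoter windows. Grey hexagons give the number of windows of the whole table per bin (log scale), red points the windows of 7 of the genes whose TSS lies in a peak, and the blue cross the upstream TSS of Dpy30, which does not. All red points have a ratio of 0.84 or more, and the cross lies at 0.08.

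Close to the TSS, the windows of the 7 matched genes were rich in CpG. Over their 9 windows with a TSS inside a peak, the ratio ran from 0.84 (Kmt2a) to 1.13 (Rbbp5), and the GC content from 44.0% (Rbbp5) to 88.0% (Kmt2c). Kmt2a had 36 CpGs in 75.7% GC, Setd1a 35 in 73.7% and Kmt2d 27 in 62.7%. With 1 window per gene, which for Dpy30 was the first one printed above, the medians were 66.3% GC, 30 CpGs and a ratio of 0.91, beside 52.7%, 7 and 0.38 over the whole table. The table mixes coding and noncoding, marked and unmarked promoters, and windows of marked coding genes alone were not compared. Rbbp5 combined the highest ratio near its TSS with the lowest ratio over its 19.2 kb peak.

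Short motifs of factors that bind many promoters were searched as plain letters on both strands of these windows, with 1 window per gene. The SP/KLF letters GGGCGG were found in Kmt2c (12 times), Kmt2a (5), Kmt2d (4) and Wdr5 (2), that is 4 of 7 genes, and in 35.7% of all promoters. Here and below, all promoters are those of the whole table, with or without a peak. A further Dpy30 window, at chr17:74316162-74316461, held them once. The YY1 letters AAGATGG were found once each in Setd1a and Wdr5, and in 6.34% of all promoters. The ETS letters CCGGAAG, the NFY letters CCAAT, the NRF1 core GCATGCG, the E-box CACGTG and the TATA letters TATAAA were found in none of the 7, and in 8.86%, 37.4%, 3.58%, 7.15% and 13.6% of all promoters. CCAAT was present once in the window of the upstream TSS of Dpy30. A match of letters is not a bound site, and its absence from 300 bases says only that these letters are not there.

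In the 50 kb on either side, 8 of the 10 genes had at least 1 further peak (28 peaks, median 3 per gene), beside 67.5% of all protein-coding genes and 85.8% of marked ones, whose median was 2. Kmt2b, Kmt2d and Setd1a had 5 each, Kmt2a, Kmt2c, Wdr5 and Dpy30 had 3 each, and Ash2l had 1. Setd1b and Rbbp5 had none, as did 14.2% of marked genes. Of the 28 flank peaks, 24 lay within 1 kb of the TSS of another gene, beside 65.1% of the 29367 flank peaks of all marked genes, counted once for each gene. The other 4 lay 1 each beside Kmt2b, Kmt2d, Wdr5 and Dpy30. The flank peaks were 0.416 to 36.1 kb wide, with a median of 2.08 kb.

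The widest peak near any of the 10 genes lay upstream of Kmt2c, at chr5:25523109-25559194. It was 36.1 kb wide, began 24.4 kb before the Kmt2c TSS and ran to 60.4 kb, over a start of the lincRNA 1700096K18Rik. Upstream of Wdr5, 2 flank peaks of 3.01 and 6.08 kb each lay at a TSS of Brd3, which encodes a bromodomain reader of acetylated histones. The nearer of these ended 2.29 kb from the Wdr5 promoter peak, the shortest gap beside any of the 10 promoter peaks and just over the 2 kb at which peaks were joined. Brd3, 1700096K18Rik, Prkag1 and Gm13421 were named after their values were seen.

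Rbbp5 was the most isolated of the genes on its downstream side, where the next peak lay 366.3 kb away. Of 21840 gaps beside promoter peaks of marked genes, 5.05% were as long or longer, and the median gap was 27.9 kb. Its upstream gap was 46.0 kb, and the flank window of 50 kb is counted from the gene and not from the peak, which begins 12.7 kb before the TSS. The upstream gap of Setd1b was 47.1 kb. Kmt2a had a gap of 106.2 kb downstream, most of it the gene itself.

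Other genes of the H3K4 methylation pathway were counted in 4 lists, in the same way. Of 34 genes, 32 were marked (94.1%, 95% Wilson interval 80.9 to 98.4%), beside the 51.9% of all protein-coding genes. The interval again treats genes chosen by name as random draws. Of the 12 other subunits of these complexes, 11 were marked, with a median width of 3.88 kb (1.25 to 61.0 kb). The exception was Kdm6a, the H3K27 demethylase of the KMT2C and KMT2D complexes, whose TSSs lay 409.8 kb or more from any peak. Of the 6 H3K4 demethylase genes, 5 were marked, with widths of 39.5 kb (Kdm5b), 19.7 kb (Kdm5c), 14.1 kb (Kdm1a), 2.64 kb (Kdm1b) and 1.93 kb (Kdm5a). Kdm5d, on the Y chromosome, had no peak, and the nearest lay 67.4 kb away.

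All 5 other SET domain genes linked to H3K4 were marked, with widths of 10.2 kb (Kmt2e), 3.77 kb (Smyd3), 1.90 kb (Ash1l), 1.66 kb (Setd7) and 1.395 kb (Prdm9, a gene known for its role in meiosis). All 11 reader genes, whose proteins bind methylated H3K4, were marked as well, with a median width of 3.04 kb (1.53 to 12.4 kb). The median of the 6 enzyme genes, 3.72 kb, thus lay near those of the other subunits and the readers. It lay above that of the other SET domain genes, 1.90 kb. The median of the 4 shared subunits, 9.80 kb, lay above all of these and below that of the demethylases, 14.1 kb. With 4 to 11 marked genes in a list and ranges that overlap, no difference between the lists was tested.

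**Figure D5:**
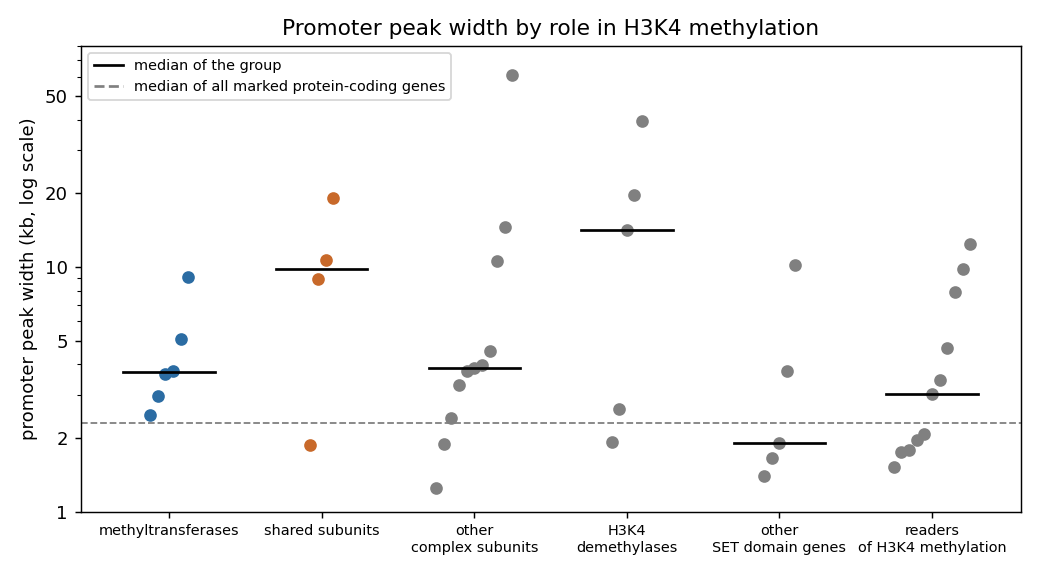
Width of the promoter peak (kb, log scale) of each marked gene by its role in H3K4 methylation. Points are genes, black bars the medians of the groups, and the dashed line the median of all marked protein-coding genes, 2.30 kb. The medians are 3.72 kb for methyltransferases, 9.80 kb for shared subunits, 3.88 kb for other complex subunits, 14.1 kb for H3K4 demethylases, 1.90 kb for other SET domain genes and 3.04 kb for readers.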

How the data were processed

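Per the labels and methods, the authors trimmed the ChIP-seq reads with Cutadapt, mapped them with bwa meme to the mouse mm10 and a human genome jointly, removed duplicates with Picard (2.9.1) and reads of low mapping quality with SAMtools (1.4), called peaks with LanceOtron, joined those closer than 2 kb and kept those high enough and close to an ATAC-seq summit. The deposited file lists positions only, with no counts or height and no score. A promoter without a peak may therefore have fallen below a threshold.

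Peaks were compared with GENCODE M21 and the RefSeq promoter table, both of GRCm38. The M21 release is earlier than the one the study names, so the isoforms and TSSs counted here may differ from the authors'. A promoter peak overlaps the 1 kb on either side of the TSS of any isoform by at least 1 bp. A gene body peak overlaps the gene but none of these windows, and a flank peak lies within 50 kb of the gene and is neither. Distances start from the longest isoform whose TSS is in the promoter peak. A percentile is the percentage of marked genes with that value or less. Repeats are the lower-case bases of the reference genome.

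The genes, lists and motifs were chosen with earlier results of these data known. All 10 genes are named. Others are named where they start at a promoter peak of these, are cell type markers, or are among 5 or fewer marked or unmarked genes of a list, except Brd3, 1700096K18Rik, Prkag1 and Gm13421, which lie at flank or gene body peaks and were chosen after their values were seen. No test was run, since 1 pooled list has no replicates. The scripts were tested on simulated peaks. The alternatives were other TSS windows, isoforms, minimum widths, overlaps, flanks, midpoints and sequence windows. Python 3.11.15, numpy 2.4.6, pandas 2.3.3, scipy 1.17.1, matplotlib 3.10.9 and samtools 1.23.1 were used.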

Additional observations from a re-analysis of the deposited data

How the results depend on the processing

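All 10 genes were marked with TSS windows of 500 bp and 2 kb, with the TSS itself in a peak, with coding transcripts, with peaks of at least 1 kb and with an overlap of 500 bp, and 9 with the longest isoform alone, which leaves out Dpy30. With the longest isoform the median width rose from 4.42 to 5.06 kb and the median extent after the TSS from 1.64 to 1.85 kb, both through the loss of Dpy30. Genes with a body peak fell from 5 to 3 when the midpoint decided (Kmt2d and Wdr5 lost theirs), and were 4 with 2 kb around the TSS left out and 6 with the longest isoform. The median observed over expected CpG went from 0.91 to 0.87 with 500 bp on either side of the TSS. Genes with a flank peak were 6, 8 and 10 for flanks of 25, 50 and 100 kb, and the 32 marked pathway genes stayed 32 in every alternative tried. Of 189 values of single genes, 162 were identical, 8 flank peak counts changed by 1 peak and stayed within 1.5 times, and 19 moved further, among them 5 flank peak counts at 25 kb and 8 at 100 kb. No paired analysis was possible because the list pools both control samples and no result comes from a test, and no replicate could be left out. The list gives no reads or heights per peak, so weak peaks that failed the thresholds cannot be told apart from promoters without signal.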
